A study of Lathyrus oleraceus with 6 samples.

Results

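RNA levels of cytochrome P450 loci moved in both directions in pea roots kept for 24 h with CO8-DA. The 6 loci described here are Psat0ss1494g0120 and Psat3g070080, which were higher after CO8-DA, and Psat2g009400, Psat1g053640, Psat2g131920 and Psat6g051040, which were lower. They are 6 of the 44756 loci in the count table and 6 of the 18 loci that the study's table of changed genes annotates as cytochrome P450. The loci were chosen by their fold change and adjusted p in the same comparison, so their differences between the groups are given as a description and support nothing further. The CO8-DA group consists of 3 libraries from roots of wild-type seedlings of cultivar Frisson, 4 to 5 days old at the start, kept for 24 h on foil in 0.5x Jensen's medium with 1e-05 M CO8-DA. The control group consists of 3 libraries from seedlings of the same cultivar and genotype kept for the same time in the medium alone. CO8-DA is a mixture of deacetylated chitooligosaccharides, short sugar chains related to chitosan, mostly of about 8 sugar units. Each library pooled the roots of a few plants, and no marker of root tissue was fixed, so the labelled tissue was not checked here.

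Cytochrome P450 proteins are heme enzymes that use molecular oxygen and electrons from NADPH to insert an oxygen atom into small molecules. In plants most of them are anchored in the endoplasmic reticulum, where they receive electrons from a reductase. They are sorted into numbered families by sequence, and the families serve the synthesis of lignin, flavonoids and defence compounds as well as the making and breakdown of hormones. Legume roots are known for isoflavonoid phytoalexins, whose synthesis passes through several P450 steps. Oxidation-reduction process is annotated at all 6 loci. Heme binding, iron ion binding and the P450 domain are annotated at 4 of the 6, and the annotation text at hand is cut short for the remaining Psat2g131920 and Psat6g051040. No sequence or coordinate is given, because the locus names matched none of the entries of the reference table used here.

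The libraries held between 12315774 and 19534336 estimated counts. Of the 21293 loci tested with edgeR's quasi-likelihood test, 3.13% were called different (Benjamini-Hochberg adjusted p under 0.05, with a log2 fold change of 1 or more in size), 2.63% being higher and 0.493% lower after CO8-DA. All 6 P450 loci passed edgeR's filter on low counts, and 2 were called higher and 4 lower, a count that the choice of loci fixed. Their adjusted p, which helped to choose them, lay between 0.00140 and 0.0491. The groups did not overlap at any of the 6, which was also the case for 25.4% of all tested loci, 13.7% with CO8-DA higher and 11.7% with CO8-DA lower. Levels are given as CPM, counts per 1000000 of the TMM-scaled library total, and gene lengths were not used here, so levels are not compared between loci. In whole roots, fewer cells of a type and less RNA per cell cannot be told apart.

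**Figure D1:**
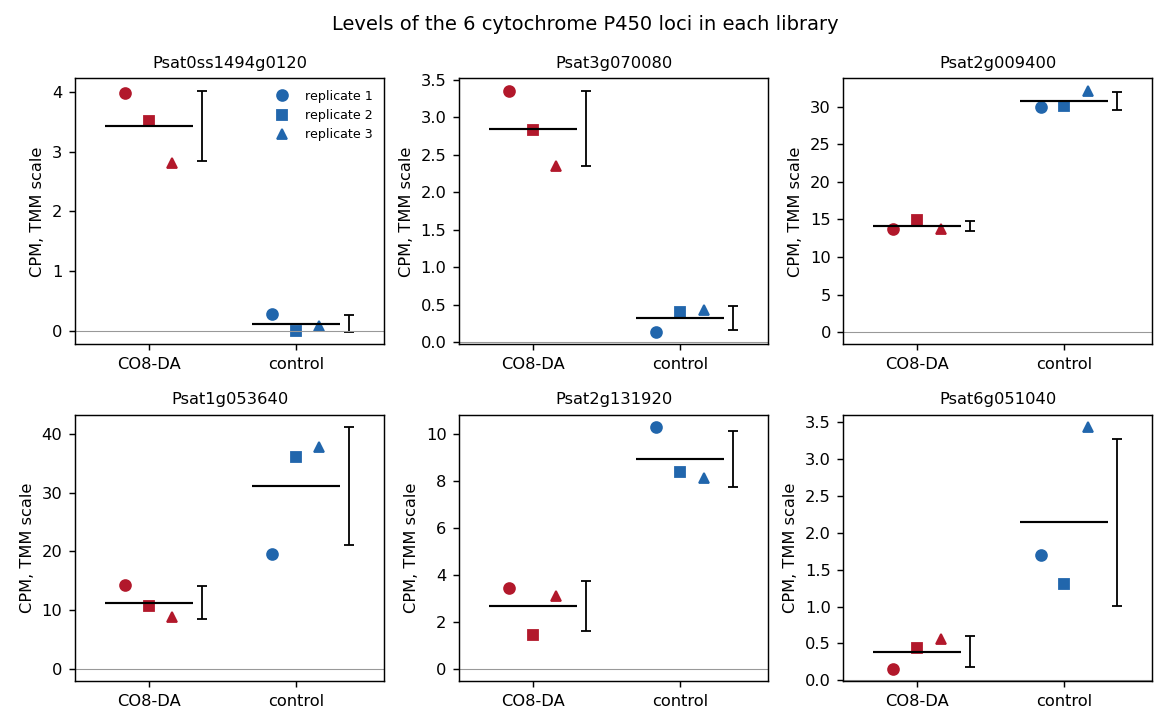
CPM on the TMM scale (vertical axes) of the 6 cytochrome P450 loci in the 3 CO8-DA libraries (red, left) and the 3 control libraries (blue, right), with marker shapes for the replicates, horizontal lines for group means and bars for 1 SD. No panel has overlapping groups, the widest relative gap is in Psat0ss1494g0120, and control replicate 1 of Psat1g053640, at 19.6 CPM, lies nearest to the other group.

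Psat0ss1494g0120 is described as a protein of P450 family 71, a large plant family whose characterized members mostly act in specialized metabolism. It had 51, 56 and 55 counts in CO8-DA replicates 1, 2 and 3, against 4, 0 and 1 counts in control replicates 1, 2 and 3. The locus was thus close to silent in every control library and clearly present in every treated library. On the CPM scale these are 3.98, 3.52 and 2.81 after CO8-DA and 0.271, 0 and 0.0714 in the control, where the 0 of control replicate 2 allows up to 0.245 CPM by a floor of 3 counts. The group means were 3.44 ± 0.587 CPM after CO8-DA and 0.114 ± 0.141 CPM in the control (SD, n = 3 each). Its fitted log2 fold change of 4.73 (standard error 0.58) was the 47th highest of all tested loci. The summed counts, 162 after CO8-DA and 5 in the control, gave a ratio of 27.5 per scaled library size, with an exact 95% counting interval of 11.6 to 85.9. That interval covers counting error only, not the spread between libraries. With control replicate 1 left out, which holds 4 of the 5 control counts, the fitted value was 6.21, and with any other library left out it was no lower than 4.24.

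Psat3g070080 is described only as a cytochrome P450 family protein, with no family number. It had 43, 45 and 46 counts in the CO8-DA libraries, against 2, 5 and 6 counts in the control libraries. The 3 treated libraries held nearly equal counts although their totals differed, so that the CPM were 3.36, 2.83 and 2.35 after CO8-DA, against 0.136, 0.408 and 0.429 in the control. The lowest treated library was 5.49 times the highest control library. The means were 2.85 ± 0.501 CPM after CO8-DA and 0.324 ± 0.164 CPM in the control (SD, n = 3 each), a log2 fold change of 3.12 (standard error 0.41). In the control the spread between libraries, a coefficient of variation of 50.5%, was close to the 48.0% that counting so few reads gives alone. Its estimated counts are whole numbers in all 6 libraries, as are those of Psat0ss1494g0120, so the estimates give no sign that their reads were divided with other loci.

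Psat2g009400, the second family 71 protein among the 6, fell least and varied least. It had 175.02, 236.81 and 269.46 estimated counts in the CO8-DA libraries, against 442.34, 368.71 and 450.36 in the control libraries. Scaled to CPM these are 13.7, 14.9 and 13.8 after CO8-DA, against 30.0, 30.1 and 32.2 in the control, so that each group held to a narrow band. The means were 14.1 ± 0.684 CPM after CO8-DA and 30.7 ± 1.22 CPM in the control (SD, n = 3 each), a log2 fold change of -1.12 (standard error 0.10). The coefficients of variation, 4.85% after CO8-DA and 3.97% in the control, were no larger than the 6.64% and 4.88% that counting alone gives. None of its 6 estimated counts is whole, which means that RSEM divided some reads with other loci, and the values hold for that division. The same family name thus stands for a locus that was higher and a locus that was lower after treatment.

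Psat1g053640 carries no family number, and its Gene Ontology text adds an extracellular location to the P450 terms. It had 182.99, 171 and 173 estimated counts after CO8-DA, against 288.99, 441.99 and 527.99 in the control. The treated libraries had 14.3, 10.7 and 8.85 CPM and the control libraries 19.6, 36.1 and 37.7 CPM. Control replicate 1 stood well below control replicates 2 and 3, and was 1.37 times the highest treated library. The means were 11.3 ± 2.76 CPM after CO8-DA and 31.1 ± 10.0 CPM in the control (SD, n = 3 each), a log2 fold change of -1.47 (standard error 0.28). The coefficient of variation of 32.2% in the control was far above the 4.88% of counting. Estimates are not whole in 4 of its 6 libraries.

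Psat2g131920 has growth terms in its Gene Ontology text, among them leaf formation, floral organ development and positive regulation of organ growth, with a location in the endoplasmic reticulum. It had 44, 23 and 61 counts in the CO8-DA libraries, against 152, 103 and 114 counts in the control libraries. The CPM were 3.43, 1.45 and 3.12 after CO8-DA, against 10.3, 8.40 and 8.15 in the control. CO8-DA replicate 2 stood well below the other treated libraries, and the highest treated library still lay below the lowest control library. The means were 2.67 ± 1.07 CPM after CO8-DA and 8.95 ± 1.18 CPM in the control (SD, n = 3 each), a log2 fold change of -1.75 (standard error 0.31). Here the treated group had the wider relative spread, with coefficients of variation of 40.1% after CO8-DA and 13.2% in the control.

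Psat6g051040 is described as a family 88 protein. Family 88 holds the kaurenoic acid oxidases of gibberellin synthesis, known from Arabidopsis and pea, while the Gene Ontology text of this locus names abscisic acid metabolism, brassinosteroid homeostasis, response to water deprivation and defence response to fungus. It was the least abundant of the falling loci in reads, with 2, 7 and 11 counts after CO8-DA, against 25, 16 and 48 counts in the control. The CPM were 0.156, 0.440 and 0.563 after CO8-DA, against 1.70, 1.31 and 3.43 in the control. Control replicate 3 held more than the other control libraries together. The means were 0.386 ± 0.209 CPM after CO8-DA and 2.14 ± 1.13 CPM in the control (SD, n = 3 each), a log2 fold change of -2.39 (standard error 0.54). The summed counts of 20 and 89 gave a ratio of 0.191 with an exact 95% counting interval of 0.111 to 0.313. That interval leaves out the spread between libraries, which was wider than counting alone gives. The coefficients of variation were 54.0% after CO8-DA and 52.7% in the control, against 38.7% and 18.4% from counting. Limma-voom gave Psat6g051040 an adjusted p of 0.0716 and did not call it.

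The calls of the 6 loci differed in whether they were kept with 1 library left out. Over all tested loci, 666 were called with all libraries, against 404, 371 and 383 without CO8-DA replicates 1, 2 and 3. Without control replicates 1, 2 and 3, 943, 560 and 466 were called. A call lost in a fit that called fewer loci therefore does not show that 1 library carried the difference. The drop in called loci was smallest without control replicate 2, so it bears least on calls lost there. Psat0ss1494g0120, Psat3g070080 and Psat2g009400 were called by edgeR in each of the 6 fits that leave out 1 library, with adjusted p up to 0.0259, 0.0329 and 0.0131. Psat2g131920 was not called without CO8-DA replicate 3 or control replicate 3, with adjusted p up to 0.0627. For Psat1g053640 the call was lost without any of the CO8-DA libraries and without control replicate 2 or 3, with adjusted p up to 0.114. For Psat6g051040 it was lost without any of the CO8-DA libraries and without control replicate 3, with adjusted p up to 0.167. None of these 6 fits turned the direction of a locus. The log2 fold change stayed between -1.72 and -1.30 in Psat1g053640 and between -2.77 and -1.88 in Psat6g051040. The values just inside the thresholds were the log2 fold change of Psat2g009400, -1.12, and the adjusted p of Psat6g051040, 0.0491. Just outside among the annotated P450 loci were Psat2g162760 and Psat3g200960, with edgeR adjusted p of 0.0727 and 0.0975.

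**Figure D2:**
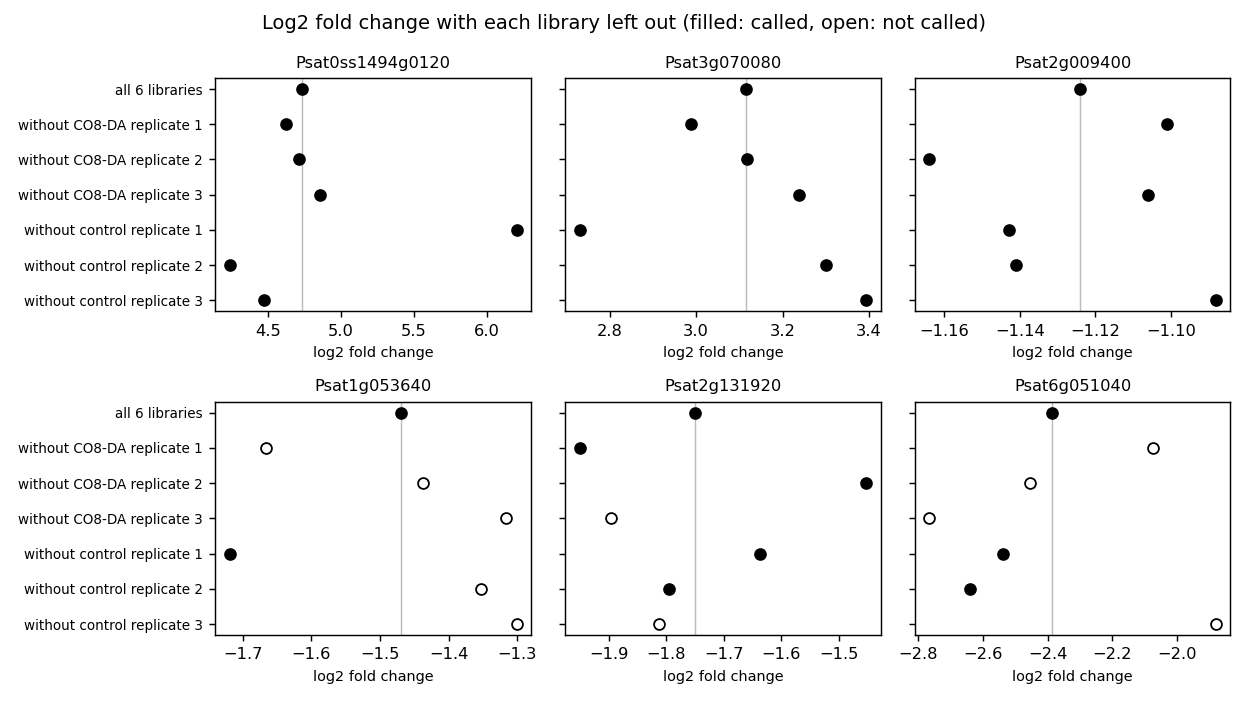
Fitted log2 fold change (horizontal axes, CO8-DA over control, each panel on its own scale) of the 6 P450 loci with all 6 libraries and with each library left out in turn, filled where edgeR called the locus and open where it did not. The first 3 loci are filled throughout, while Psat1g053640 is filled in only 1 of the 6 reduced fits and Psat6g051040 in 2.

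The libraries of a group did not rank alike across the 6 loci. CO8-DA replicate 1 was the highest treated library at 4 of them, Psat0ss1494g0120, Psat3g070080, Psat1g053640 and Psat2g131920, and the lowest at Psat2g009400 and Psat6g051040. Control replicate 3 was the highest control library at 4 loci. Control replicate 2 was the lowest control library at 7 of the 10 P450 loci called higher, these being Psat0ss1494g0120 and 6 others, and at 67.7% of all 561 loci called higher, so the P450 loci stood near the rest in this. It was the lowest at 35.4% of all tested loci. Over the 6 libraries the log2 CPM of Psat0ss1494g0120 and Psat3g070080 had a Pearson correlation of 0.895, and those of the 4 falling loci correlated with each other between 0.751 and 0.911. These correlations are descriptions over 6 libraries that share the treatment, and they follow from loci chosen for differing between the groups.

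The position of the loci in the genome played no part in their choice. Locus numbers are assumed to follow the chromosome, and Psat3g070080 had neighbours that were higher after CO8-DA too. Psat3g070040, the next locus on its lower side, is described as an uncharacterized protein and had 84, 92 and 85 counts in the CO8-DA libraries, against 3, 6 and 11 in the control libraries. Its means were 5.56 ± 1.12 CPM after CO8-DA and 0.493 ± 0.291 CPM in the control (SD, n = 3 each), with a fitted log2 ratio of 3.48 (standard error 0.41) and an edgeR adjusted p of 0.00363. The treated libraries all lay above the control libraries, the call was kept with any 1 library left out, and the P450 locus beside it had 3.12 on the same scale. Psat3g070000, the locus after that, is described as a PRA1 family protein, a family of small membrane proteins linked to vesicle traffic. It had 130, 149 and 198 counts after CO8-DA, against 49, 27 and 65 in the control, with a fitted log2 ratio of 1.53 (standard error 0.26) and an edgeR adjusted p of 0.0165. Leaving out CO8-DA replicate 1, 2 or 3 ended this call, with adjusted p up to 0.0706. The estimates of both neighbours are whole in all 6 libraries, so they give no sign of reads divided between these loci. On the other side Psat3g070160 had no counts, and Psat3g070200 had a log2 fold change of -0.25 (edgeR adjusted p = 0.373).

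Over all 6 P450 loci there were 23 such neighbours, at most 2 on each side, of which 11 were tested. In the edgeR fit without a block the neighbours of Psat3g070080 were the only ones called, 2 higher and none lower, and 1 further neighbour had an unadjusted p under 0.05. DESeq2 also called 2 higher and none lower. None of the 7 tested neighbours of the falling loci passed the test. They had log2 fold changes of -0.65 in Psat2g009360 and -0.41 in Psat2g009320 on the lower side of Psat2g009400, of -1.08 (standard error 1.15) in Psat2g009440 on its upper side and of -0.48 in Psat1g053720 beside Psat1g053640. The neighbours of Psat2g131920 and Psat6g051040 lay near 0, with 0.06 in Psat2g132000, 0.08 in Psat6g051080 and 0.02 in Psat6g051120. When the window was widened to 10 loci on each side, a width chosen after these values were seen, 16 loci around Psat3g070080 were tested and the same 2 were called. Around Psat2g009400 10 were tested, and Psat2g009080, described as a multidrug resistance ABC transporter and 7 loci away, was higher by 1.96 on the log2 scale (standard error 0.09) with an edgeR adjusted p of 0.000113, opposite to the P450 locus. Around Psat2g131920 1 of 7 tested loci was called, Psat2g131520, an uncharacterized protein with a log2 fold change of 2.45 (edgeR adjusted p = 0.000790). None was called around Psat1g053640, Psat6g051040 or, on a scaffold with 5 loci of which only 1 neighbour was tested, Psat0ss1494g0120. These 3 windows held 1 locus with an unadjusted p under 0.05, Psat1g053360, 7 loci away from Psat1g053640. Its log2 fold change was 0.30 (edgeR unadjusted p = 0.0284), opposite to the P450 locus. DESeq2 called none of the loci in these 3 windows.

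**Figure D3:**
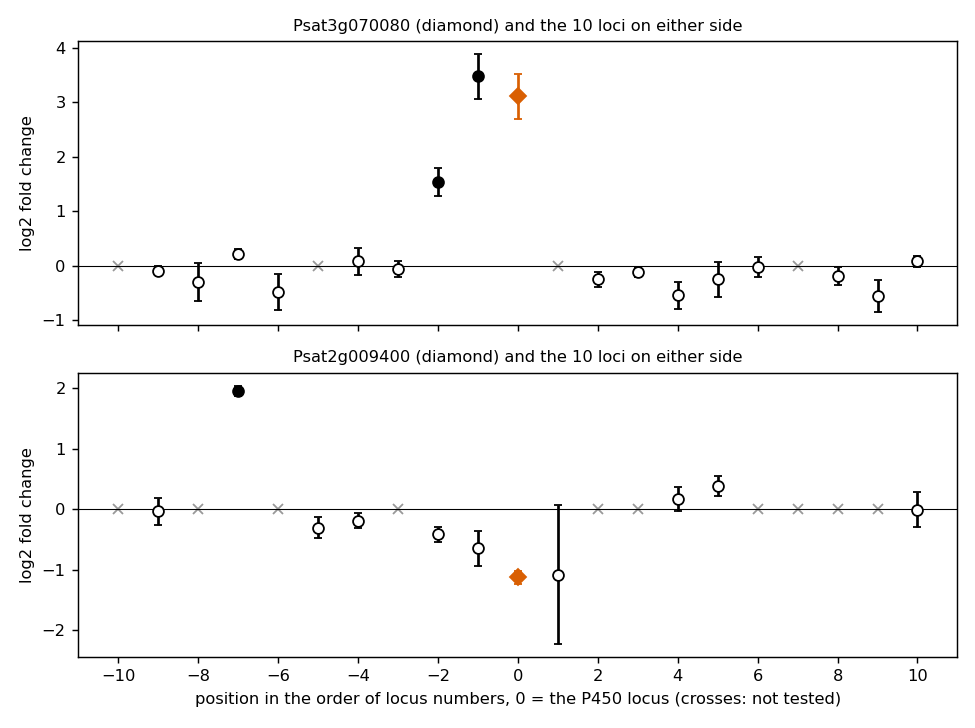
Log2 fold change with its standard error (vertical axes, CO8-DA over control) of the loci around Psat3g070080 (top) and Psat2g009400 (bottom), in the order of their locus numbers (horizontal axis), filled where called, open where not and crosses where not tested. The 2 loci below Psat3g070080 in number lie at 3.48 and 1.53 beside its own 3.12. The other loci tested around it, none of them called, lie between -0.56 and 0.21.

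The 12 remaining loci annotated as P450 in the changed-gene table come from a list the study made on these libraries with DESeq2, so their counts are no independent evidence. EdgeR tested 11 of them, of which 8 were higher and 1 was lower. Their median on the log2 scale was 2.33, against -0.01 over all tested loci. The median was -1.30 over the 6 loci described above, of which the choice fixed 4 as lower. DESeq2 called 9 of the 12 higher and 3 lower, and over all loci 695 higher and 196 lower. Called higher were the 2 isoflavone synthase loci Psat7g117360 and Psat7g117880, which belong to the enzyme that makes isoflavones from flavanones, with log2 fold changes of 4.58 and 3.09. The estimates of both are not whole in 5 of the 6 libraries, so RSEM divided some of their reads with other loci. Psat7g117360 had 22.78, 18.99 and 22.03 estimated counts after CO8-DA, against 1.05, 0 and 1.02 in the control. Psat7g117880 had 1067.74, 887.27 and 1736.54 after CO8-DA, against 212.17, 9 and 156.52 in the control. The 3 loci named after fatty acid omega-hydroxylases of family 94 from vetch were also called higher, Psat3g059440 at 3.04, Psat6g056080 at 2.33 and Psat6g056160 at 1.51. Of these, Psat3g059440 and Psat6g056160 carry jasmonic acid and wounding terms, and Psat3g059440 a response to chitin term, terms that none of the 6 loci carries in the text at hand. The others called higher were Psat4g150280 at 3.23, Psat4g187200 at 2.31 and Psat1g079680, described as the pea P450 82A1, at 1.83. Psat1g079680 had 203, 186 and 245 CPM after CO8-DA, against 81.9, 43.2 and 53.4 CPM in the control (edgeR adjusted p = 0.00537). Some calls of this list were not kept in every fit with 1 library left out, which again does not show that 1 library carried the difference. The call of Psat7g117880 was lost without CO8-DA replicate 1, 2 or 3 or control replicate 3 (adjusted p up to 0.137). For this gene the study also reported a significant rise by real-time qPCR, a measurement not examined here. The call of Psat4g187200 was kept only without control replicate 1 (adjusted p up to 0.174). Psat6g056080 lost its call without CO8-DA replicate 1, 2 or 3 (up to 0.0778), and Psat3g059440 without CO8-DA replicate 1 or 2 or control replicate 2 (up to 0.0701). Psat4g150280 lost it without CO8-DA replicate 3 (0.0551) and Psat6g056160 without CO8-DA replicate 1 (0.0511). With edgeR's robust estimation 6 of the 8 were called higher, the calls of Psat7g117880 (adjusted p = 0.0862) and Psat4g187200 (adjusted p = 0.0921) being lost.

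The lower locus among them was Psat5g201640, a flavonoid hydroxylase with the annotated activity of flavonoid 3'-monooxygenase, which adds a hydroxyl group to the B ring of flavonoids. It had 44.3, 35.0 and 38.9 CPM after CO8-DA, against 131, 186 and 177 CPM in the control, which is -2.07 on the log2 scale (standard error 0.16) with an edgeR adjusted p of 0.000646. Its treated and control libraries lay far apart, and it kept its call with any 1 library left out, as did only Psat7g117360 and Psat1g079680 among the other 8 called loci. Psat3g200960, a further family 71 protein, had 7, 5 and 2 counts after CO8-DA, against 17, 42 and 13 in the control, and was not called by edgeR (adjusted p = 0.0975). DESeq2 called it, with an adjusted p of 0.0218, against 0.0218 to 0.125 over the fits with all libraries. Psat2g162760, also of family 71, had 34, 11 and 29 counts after CO8-DA, against 5, 0 and 2 in the control, and edgeR's fit of all libraries without a block did not call it (log2 fold change 3.17, adjusted p = 0.0727). DESeq2 called it with an adjusted p of 0.00841, against 0.00841 to 0.0844 over the fits with all libraries, and edgeR called it without control replicate 1, with 4.24 on the log2 scale and an adjusted p of 0.0493. Family 71 thus held values in both directions outside the 6 loci as well as among them.

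Psat5g169320, the last family 71 protein of the list, had 0, 0 and 0 counts after CO8-DA, against 22, 6 and 55 in the control. It did not pass edgeR's filter on low counts and was not tested. Taking 3 counts summed over the CO8-DA libraries as the floor, its level was at least 32.6-fold lower after CO8-DA. Control replicate 3 held 55 of the 83 control counts, and without it the bound was 16.7-fold. EdgeR called it lower with the filter lifted, with an adjusted p of 0.0243, and DESeq2 with an adjusted p of 1.46e-05.

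**Figure D4:**
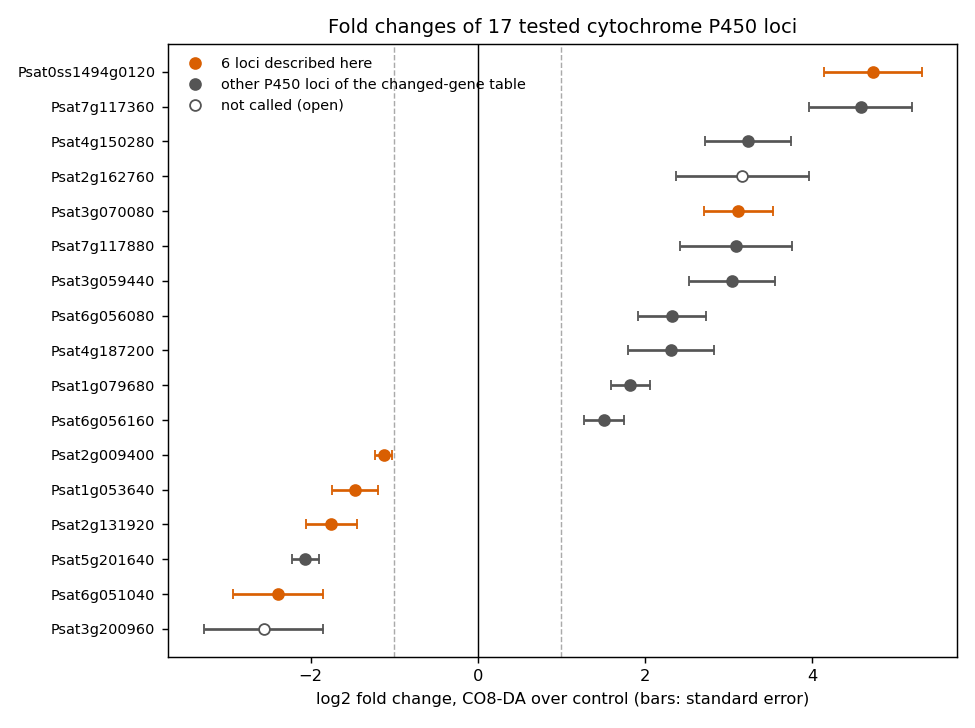
Log2 fold change (horizontal axis, CO8-DA over control) with its standard error for the 17 tested loci annotated as cytochrome P450 in the changed-gene table, with the 6 loci described here in orange, the others in grey, open circles where not called and dashed lines at the fold threshold. The 2 rising loci lie at 4.73 and 3.12 among the higher group, and the 4 falling loci lie between -2.39 and -1.12.

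A further 20 loci are described as P450 in a table of all genes of which only the upper end by fold change is at hand, so no share or direction is read from them. EdgeR tested 6 of these and, without a block, called none, 4 of them having an unadjusted p under 0.05, and DESeq2 called none. The largest tested value was in Psat5g233760, with 1655, 1269 and 1409 counts after CO8-DA, against 645, 31 and 252 in the control, a log2 fold change of 2.12 (edgeR adjusted p = 0.171). Its control libraries spanned 2.53 to 43.7 CPM, and without control replicate 1 it was called, with an adjusted p of 0.0283. Psat6g174720, with a log2 fold change of 1.06, was also called without control replicate 1 (1.79, edgeR adjusted p = 0.0389). The 14 that were not tested held at most 42 counts in the CO8-DA group. Psat6g198280 of family 72, with 3, 5 and 8 counts after CO8-DA and 0, 0 and 0 in the control, was at least 4.53-fold higher when 3 counts summed over the control libraries are taken as the floor. Without CO8-DA replicate 3 the bound was 3.81-fold. EdgeR with the filter lifted did not call this locus (adjusted p = 0.0871), and DESeq2 gave it no adjusted p.

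For each of the 6 loci the 2 most similar tested loci were taken by the Pearson correlation of log2 CPM over the 6 libraries, among 16297 candidates whose average log2 CPM was 2 or more. The 12 correlations lay between 0.990 and 0.999 and are descriptions over 6 libraries, picked as the highest of many. Psat3g070080 was most like Psat7g246240, which has no description in the changed-gene table, with a correlation of 0.995. Psat7g246240 had 345.76, 346.79 and 335.86 estimated counts after CO8-DA, against 3.51, 7.54 and 13.11 in the control, with 5.15 on the log2 scale (standard error 0.35) and an edgeR adjusted p of 0.000350. None of its 6 estimates is whole. Like the P450 locus it held nearly equal counts in the treated libraries and its lowest control level in replicate 1. Psat0ss1494g0120 was most like Psat2g014400 and Psat3g204560, whose log2 fold changes of 0.74 and 0.60 stayed below the fold threshold at adjusted p of 0.0121 and 0.0452. The closest to the falling loci were Psat7g264080 for Psat2g009400 at -0.66, Psat0s899g0040 for Psat1g053640 at -0.18, Psat4g058480 for Psat2g131920 at -0.70 and Psat4g165680 for Psat6g051040 at -0.83 on the log2 scale. Of the 12 only Psat7g246240 was called, and the other 11 had changes below the fold threshold.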

How the data were processed

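The 6 RNA-seq libraries were assigned to groups and replicate numbers from their titles. The deposited values are expected counts per gene, made by the authors from paired reads with Trimmomatic 0.39, Bowtie2 2.4.4 and RSEM 1.3.1 on the pea genome v1a, without normalization. RSEM shares out reads that align to more than 1 locus, and an estimate at least 0.005 from a whole number was read as divided. After rounding, the test was edgeR 4.0.16 under R 4.3.3 (TMM, filterByExpr, glmQLFit, glmQLFTest), with Benjamini-Hochberg adjustment over 21293 loci. The standard error is the log2 fold change divided by the square root of F. For a single locus, 3 against 3 libraries allow no two-sided exact permutation p below 0.1. The quasi-likelihood p rests on spread shared across loci. Replicates were stated to be independent biological repeats. Counting intervals and floors cover counting error only. The script was tested on simulated data.

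The 6 loci, the lists and the tests were chosen with earlier results of these data known. Named are the 6 loci, loci annotated as P450 in the study's tables, up to 2 neighbours on each side, and the 2 most alike loci of each. Descriptions come from those tables, whose fold changes and p-values were not used. Alternatives were DESeq2 1.42.0, limma-voom (limma 3.58.1), other scalings, filters and thresholds, unrounded counts, blocks, and each library left out.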

Additional observations from a re-analysis of the deposited data

How the results depend on the processing

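Every fit kept the direction of the 6 P450 loci. EdgeR called 666 loci, 561 higher and 105 lower, and DESeq2 891 with 196 lower. The titles give both groups the same replicate numbers, and deviations from the group means correlated by 0.226, 0.045 and 0.151 for numbers 1, 2 and 3. Each CO8-DA library correlated best with the control library of its own number. Control replicates 1 and 3 also correlated best with their own number, and control replicate 2 with CO8-DA replicate 3, by 0.087. The edgeR fit without a block did not take the numbers as pairs, and whether the libraries were paired was not tested. With the replicate block 706 loci were called, Psat1g053640 had an adjusted p of 0.0530 and was not called, and Psat2g162760 was called with 0.0238. With the replicate block by library number, taken from the sample descriptions, 1094 loci were called, of which 888 were higher and 206 lower. Only numbers 3 and 4 occur in both groups, so only 2 libraries of each group bear on that fold change. They pair CO8-DA replicate 1 with control replicate 3, whose deviations correlated by -0.119, and CO8-DA replicate 2 with control replicate 2. The spread of each locus in the fit with this block therefore rests on very few libraries. That block also called Psat2g162760 (adjusted p = 0.0148), 3 of the 6 tested loci of the shortened table, Psat5g233760 (0.0032), Psat6g088280 (0.00553) and Psat6g174720 (0.0354), and, as lower, the neighbour Psat2g009440 (-2.82 on the log2 scale, 0.0344). An adjusted p under 0.01 left 315 loci, 289 higher and 26 lower, with 1 of the 4 falling P450 loci and 2 of the other P450 loci called higher. Without the fold threshold 256 loci were lower. Of the other P450 loci, DESeq2 called 3 lower, and edgeR called 2 lower without the filter. Leaving out each library in turn gave 371 to 943 called loci, 338 to 778 higher and 33 to 165 lower, with 1 to 4 of the falling P450 loci, 3 to 9 of the other P450 loci higher and 1 to 2 lower. Without control replicate 1 most loci were called, 943, and without CO8-DA replicate 2 fewest, 371. The direction turned only at 4 neighbouring loci, not called without a block. With 1 library left out, log2 fold changes lay between -2.49 and 0.72 in Psat2g009440 (0.72 without control replicate 2, -1.08 with all libraries), between -0.027 and 0.139 in Psat2g132000, between -0.041 and 0.169 in Psat6g051080 and between -0.083 and 0.118 in Psat6g051120, which also had -0.10 with the block by library number. The cause was not tested. Leaving out libraries for the bounds on Psat5g169320 and Psat6g198280 was added after seeing the data. Low counts limit Psat6g051040 and the control levels of Psat0ss1494g0120 and Psat3g070080.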
